A study of Mus musculus with 9 samples.

Results

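The IL-1 family receptors measured here were 6 mouse genes, Il1r1, Il1r2, Il1rl1, Il1rap, Il18r1 and Il18rap, taken by symbol from a panel of 750 immune genes counted with the NanoString nCounter, which counts RNA molecules by hybridised color-coded probes. All 6 were found in the table. A group mean of 100 normalized counts, 6.64 on the log2 scale, was used as the floor for a level that can be read. By that floor 5 of the 6 genes were read in 1 group or more and 1, Il1r1, lay under it in every group. Over the whole panel 389 of 750 genes reached it.

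RNA came from OT-1 cells, CD8 T cells of transgenic mice whose T cell receptor recognises the ovalbumin (OVA) peptide SIINFEKL. The study compared 3 conditions over 24 h of culture with 3 samples each, 9 in all. In the first, OT-1 cells were cultured with OVA macrophages and CT2A-TRP2-B2mKO tumor cells. The macrophages were grown from Ly6Chi bone marrow monocytes and loaded with 10 µM peptide for 4 h. The tumor is a mouse glioma line, CT2A, that carries the TRP2 antigen, lacks β2-microglobulin and therefore presents no antigen on MHC class I. In the second condition the OT-1 cells met the OVA macrophages without tumor, and in the last they were kept alone. The labelled T cell ratios are 10 to 1 for tumor and 5 to 1 for macrophages, whereas the methods give others. Every group shared the same history, in which splenocytes were primed with 1 µM peptide and 50 IU/mL IL-2 for 48 h, purified for CD8 and kept in IL-2 up to a total of 4 days. The series text nonetheless calls the T cells kept alone naive. CD8+ sorting after culture is described for the co-cultures. The 3 samples of a group were separate cultures, and whether their T cells came from separate mice is not given in the sources used here. IL-2 is named in the medium of OT-1 cells kept alone and not in that of the co-cultures, so a share of IL-2 in any difference from OT-1 cells alone cannot be told apart from that of the added cells.

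Receptors of this family pair a ligand-binding chain with an accessory chain, and the joined intracellular TIR domains recruit MyD88 and IRAK kinases to activate NF-κB. IL1R1 binds IL-1 and signals with the accessory chain IL1RAP, whereas IL1R2 binds IL-1 without a TIR domain and acts as a decoy. IL1RL1, also called ST2, is the IL-33 receptor and also signals with IL1RAP. IL18R1 binds IL-18 and signals with its own accessory chain, IL18RAP. In CD8 T cells, IL-18 acts with IL-12 to raise interferon-γ, and IL-33 is known to act on activated effector cells through ST2.

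On mouse chromosome 1, in the RefSeq annotation of GRCm38.p6, 5 of the 6 genes stand in 1 row in the order Il1r2, Il1r1, Il1rl1, Il18r1 and Il18rap, with Il1rl2, the IL-36 receptor, between Il1r1 and Il1rl1. Il1rl1 and Il18r1 are next to each other, and Il1rap lies alone on chromosome 16. Because 4 of these neighbours changed in the results that follow and did so to different extents, their start site regions are shown. The 6 genes have 10 RefSeq promoter windows of 300 bases, from 250 bases before a start site to 50 after it. Each was searched on both strands for motifs of factors that T cell activation or cytokine receptors are known to engage. The 4 windows with an NF-κB or STAT match are printed to 30 bases after the start, all on the plus strand, with matches to NF-κB, STAT or GATA motifs in capitals.
Il1r2 (GRCm38.p6 chr1:40085843-40086122): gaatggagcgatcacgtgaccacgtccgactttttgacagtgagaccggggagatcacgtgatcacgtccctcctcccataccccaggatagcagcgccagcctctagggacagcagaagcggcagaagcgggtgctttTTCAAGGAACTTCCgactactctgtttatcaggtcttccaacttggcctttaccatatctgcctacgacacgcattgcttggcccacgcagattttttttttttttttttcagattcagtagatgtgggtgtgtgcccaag
Il1rl1, last of 2 starts (chr1:40439379-40439658): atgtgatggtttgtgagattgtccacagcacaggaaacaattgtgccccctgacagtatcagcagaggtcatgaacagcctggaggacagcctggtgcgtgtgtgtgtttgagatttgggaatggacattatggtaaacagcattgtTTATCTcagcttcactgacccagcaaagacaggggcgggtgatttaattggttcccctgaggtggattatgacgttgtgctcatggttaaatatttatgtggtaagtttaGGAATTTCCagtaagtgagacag
Il18r1, last of 3 starts (chr1:40465756-40466035): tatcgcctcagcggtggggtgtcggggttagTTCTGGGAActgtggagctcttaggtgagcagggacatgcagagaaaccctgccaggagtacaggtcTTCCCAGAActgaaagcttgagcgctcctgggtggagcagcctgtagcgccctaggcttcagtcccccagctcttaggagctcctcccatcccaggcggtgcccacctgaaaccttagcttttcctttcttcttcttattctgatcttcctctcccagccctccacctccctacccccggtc
Il18rap (chr1:40515112-40515391): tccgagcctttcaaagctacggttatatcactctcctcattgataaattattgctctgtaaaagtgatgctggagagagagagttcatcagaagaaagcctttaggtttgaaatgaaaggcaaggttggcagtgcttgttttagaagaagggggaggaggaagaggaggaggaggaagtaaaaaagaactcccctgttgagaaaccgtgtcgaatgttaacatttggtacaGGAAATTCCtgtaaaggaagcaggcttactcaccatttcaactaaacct

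The NF-κB letters GGANNTTCC occurred in 3 of the 10 windows, those of Il1r2 at -106, of the last Il1rl1 start at 8 and of Il18rap at -19 bases from the start site, each reading on both strands at the same place. Of 32851 mouse RefSeq promoters of the same length, 4.26% held them. STAT letters TTCNNNGAA occurred in 2 windows, in Il1r2 at -111, where they overlap the NF-κB match, and in the Il18r1 window of its last start at -219 and -152, against 8.30% of all promoters. The GATA letters AGATAA occurred in both Il1rl1 windows, against 11.2% of all promoters. AP-1 letters TGANTCA and the T-box letters GGTGTGA, which 7.81% and 3.98% of all promoters hold, had 0 matches in the 10 windows. These matches describe the letters in the windows and were not tested for binding.

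**Figure D1:**
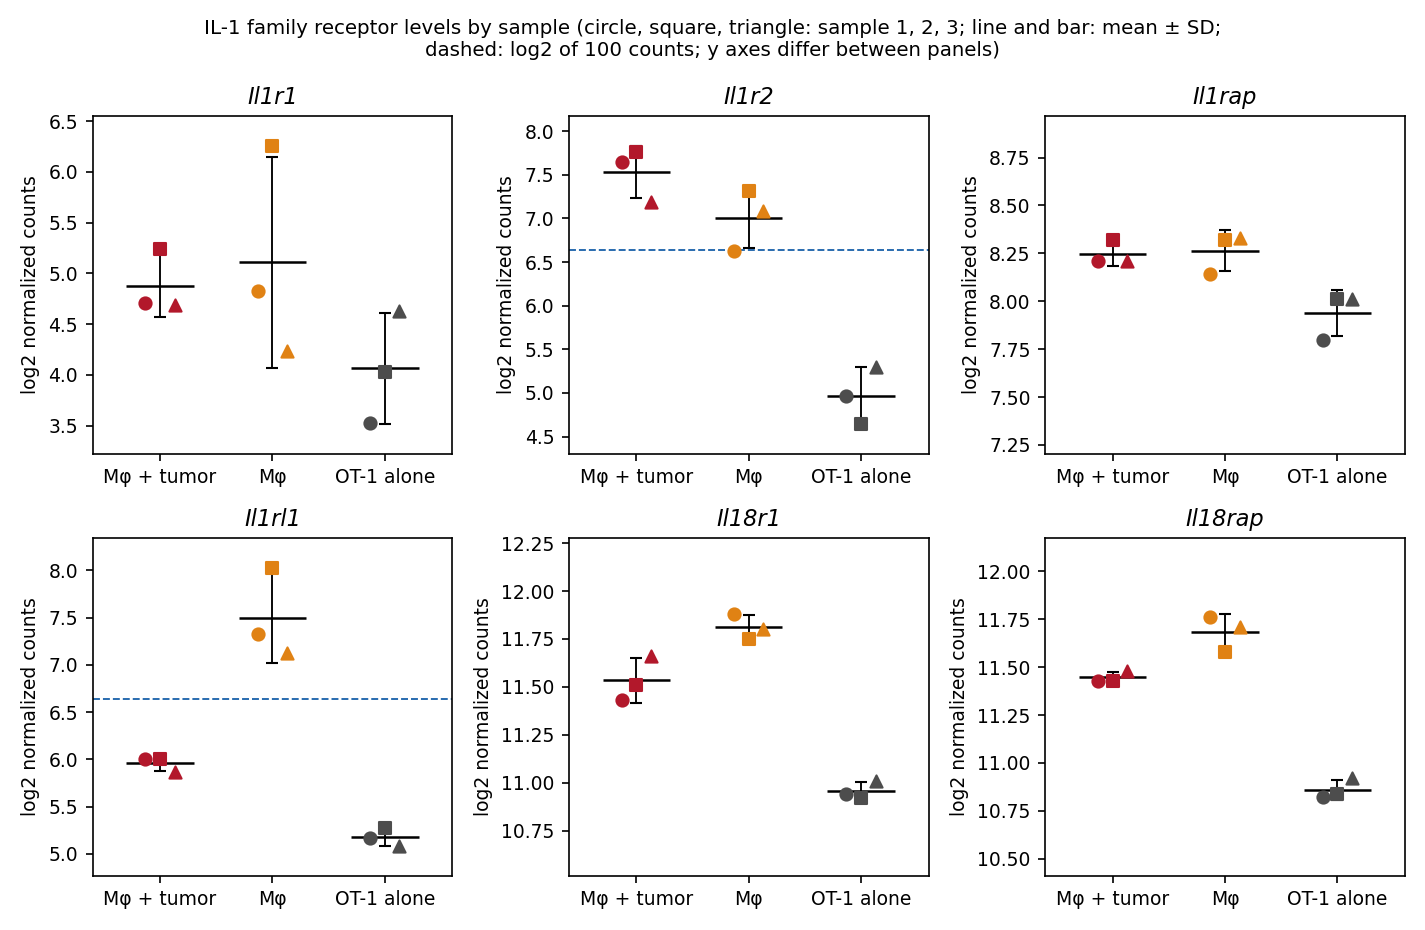
Log2 normalized counts (y axis, scaled per panel) of the 6 receptor genes, 1 panel each, with 1 point per sample, a line and bar for the mean ± SD (n = 3), and the groups macrophages and tumor (Mφ + tumor), macrophages (Mφ) and OT-1 alone along the x axis. The dashed line marks 6.64, the log2 of 100 counts: Il1rl1 lay above it with macrophages, at 7.13 to 8.03, and under it in both other groups.

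Il1r2, the IL-1 decoy receptor, rose in each co-culture and had a mean under the floor in OT-1 cells alone. Its log2 normalized levels were 7.65, 7.76 and 7.19 with macrophages and tumor, 6.63, 7.32 and 7.08 with macrophages, and 4.97, 4.64 and 5.30 in OT-1 cells alone. Every co-culture sample lay above every sample of OT-1 cells alone, while the co-cultures overlapped each other. The group means were 7.53 ± 0.30 with macrophages and tumor, 7.01 ± 0.35 with macrophages and 4.97 ± 0.33 in OT-1 cells alone (SD, n = 3 each). Il1r2 rose with macrophages and tumor against OT-1 cells alone (log2 (fold change) = 2.56 ± 0.25 SE, 5.91-fold, adjusted P value = 0.00167), which was number 7 from the top among the 750 genes. It also rose with macrophages against OT-1 cells alone (log2 (fold change) = 2.04 ± 0.25 SE, 4.11-fold, adjusted P value = 0.00564), number 17 from the top. Between the co-cultures, macrophages and tumor minus macrophages gave 0.52 on the log2 scale with a 95% interval of -0.07 to 1.12 and an adjusted P value of 1. P values are from limma fitted to all 750 genes with Benjamini-Yekutieli adjustment. Because the mean of Il1r2 in OT-1 cells alone was under the floor, setting values to the floor cut the change with macrophages to 0.37 (adjusted P value = 1) and kept the call with macrophages and tumor at 0.89. Quantile normalization ended both calls, at 2.05 with macrophages and tumor (adjusted P value = 0.0563) and 1.1 with macrophages (adjusted P value = 0.639), and centring on the median of all genes ended that with macrophages, at 1.35 (adjusted P value = 0.108). With each gene's own spread the adjusted P value with macrophages was 0.0916.

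Il1r1, the signalling IL-1 receptor, stayed under the floor. Its log2 levels were 4.71, 5.24 and 4.69 with macrophages and tumor, 4.83, 6.26 and 4.24 with macrophages, and 3.53, 4.03 and 4.63 in OT-1 cells alone. Those levels rest on 12 to 34 raw counts per sample. The 3 samples with macrophages and tumor lay above those of OT-1 cells alone, and the macrophage samples overlapped both. Il1r1 passed the test in none of the 3 comparisons (log2 difference 0.82 for macrophages and tumor against OT-1 alone with a 95% interval of -0.43 to 2.06, and 1.05 for macrophages against OT-1 alone with an interval of -0.20 to 2.29).

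Il1rap, the accessory chain that IL1R1 and ST2 share, was read in every sample and differed little between groups. Its log2 levels were 8.21, 8.32 and 8.21 with macrophages and tumor, 8.14, 8.32 and 8.33 with macrophages, and 7.80, 8.01 and 8.01 in OT-1 cells alone. The co-culture samples all lay above the OT-1 cells alone and overlapped each other. Its differences were 0.31 with macrophages and tumor (95% interval 0.08 to 0.53, adjusted P value = 0.385) and 0.32 with macrophages (0.10 to 0.55, adjusted P value = 0.303), neither past the threshold of 0.05. Both were under the median difference of all genes in the same comparisons, 0.40 and 0.66, and both turned negative when each sample was centred on the median of all genes. Macrophages and tumor minus macrophages gave -0.02 for Il1rap (95% interval -0.24 to 0.21).

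Il1rl1, the IL-33 receptor ST2, was the only member whose difference between the co-cultures passed the test on the deposited values. Its log2 levels were 6.0, 6.0 and 5.87 with macrophages and tumor, 7.33, 8.03 and 7.13 with macrophages, and 5.17, 5.27 and 5.08 in OT-1 cells alone. As normalized counts these were 64.0, 64.0 and 58.5 with macrophages and tumor, 160.9, 261.4 and 140.1 with macrophages, and 36, 38.6 and 33.8 in OT-1 cells alone. The 3 groups did not overlap, with macrophages highest, macrophages and tumor between, and OT-1 cells alone lowest. Il1rl1 rose with macrophages against OT-1 cells alone (log2 (fold change) = 2.32 ± 0.22 SE, 5.00-fold, adjusted P value = 0.00160), number 7 from the top of 750 genes. As its mean in OT-1 cells alone was under the floor, setting values to the floor cut this change to 0.85 and ended the call (adjusted P value = 0.0714), as did testing with each gene's own spread (2.32, adjusted P value = 0.0655). With macrophages and tumor against OT-1 cells alone the difference was 0.78 ± 0.22 SE (95% interval 0.27 to 1.30), which did not pass the test (adjusted P value = 0.252).

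Against macrophages, Il1rl1 fell with macrophages and tumor (log2 (fold change) = -1.54 ± 0.22 SE, 95% interval -2.06 to -1.02, adjusted P value = 0.0447), to 0.344 times the macrophage level. This was the lowest log2 difference of the 750 genes in that comparison. The call was narrow, since leaving out any 1 of the 8 samples other than macrophage sample 2 gave an adjusted P value from 0.0600 to 0.234. That sample was the shallowest, with 41 raw Il1rl1 counts against 133 and 192 in the other macrophage samples. Without it the difference was -1.27 with an adjusted P value of 0.00525, and the difference of macrophages and tumor from OT-1 cells alone then passed too (adjusted P value = 0.00348). Both groups below macrophages had Il1rl1 means under the floor, and with values set to the floor the difference was -0.85 (adjusted P value = 0.149). The call was also lost when centred on the median of all genes (-1.36, adjusted P value = 0.602) and, at -1.54, with the 2 groups fitted alone (0.415) or each gene's own spread (0.507).

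The IL-18 receptor chains, Il18r1 and Il18rap, were the most deeply counted members, with 480 to 4504 raw counts per sample, and rose together in both co-cultures. Il18r1 levels on the log2 scale were 11.43, 11.51 and 11.66 with macrophages and tumor, 11.88, 11.75 and 11.80 with macrophages, and 10.94, 10.92 and 11.01 in OT-1 cells alone. Il18rap had log2 levels of 11.43, 11.43 and 11.48 with macrophages and tumor, 11.76, 11.58 and 11.71 with macrophages, and 10.82, 10.84 and 10.92 in OT-1 cells alone. For both genes the 3 groups did not overlap and ran in the same order as Il1rl1, with macrophages highest and OT-1 cells alone lowest. Il18r1 rose with macrophages and tumor (log2 (fold change) = 0.58 ± 0.09 SE, 1.49-fold, adjusted P value = 0.0121) and with macrophages (0.85 ± 0.09 SE, 1.81-fold, adjusted P value = 0.00225), each against OT-1 cells alone. Il18rap rose with macrophages and tumor (0.59 ± 0.08 SE, 1.5-fold, adjusted P value = 0.00651) and with macrophages (0.82 ± 0.08 SE, 1.77-fold, adjusted P value = 0.00154).

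Between the co-cultures the IL-18 receptor chains were lower with macrophages and tumor in every sample. The log2 difference was -0.28 for Il18r1 (95% interval -0.48 to -0.08, adjusted P value = 0.820) and -0.24 for Il18rap (-0.42 to -0.06, adjusted P value = 0.888), neither past the threshold. The Il18r1 call with macrophages and tumor against OT-1 cells alone was lost without sample 2 of macrophages and tumor (adjusted P value = 0.0685) and without sample 1, 2 or 3 of OT-1 cells alone (0.0801, 0.0826 and 0.0517). When samples were centred on the median of the expressed genes, the differences with macrophages and tumor against OT-1 cells alone were 0.27 for Il18r1 and 0.28 for Il18rap and neither passed (adjusted P value = 0.382 and 0.245). Centring on the median of all genes left 0.07 and 0.08 there, and 0.16 and 0.13 with macrophages against OT-1 cells alone, with 0 calls.

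**Figure D2:**
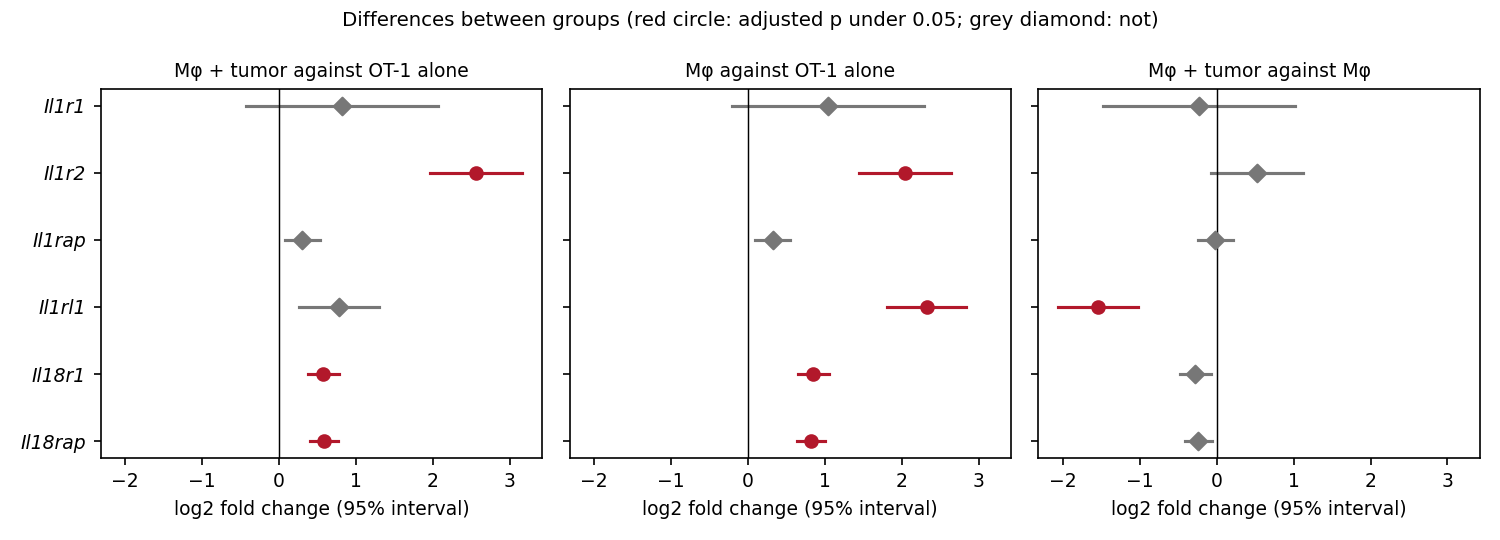
Log2 fold change (x axis, shared scale) of each receptor gene (y axis) in the 3 comparisons, 1 panel each, with bars for the 95% interval, red circles for an adjusted P value under 0.05 and grey diamonds otherwise. Il1r2 lies at 2.56 and 2.04 against OT-1 cells alone, and Il1rl1 is the red point between the co-cultures, with an interval of -2.06 to -1.02.

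Against OT-1 cells alone, 3 of the 6 receptors rose with macrophages and tumor (Il1r2, Il18r1 and Il18rap) and 0 fell, where 14.5% of the 750 genes rose and 3.87% fell. With macrophages 4 of 6 rose (those 3 and Il1rl1) and 0 fell, where 11.9% of all genes rose and 6.53% fell. Samples did not overlap for 6 of 6 receptors with macrophages and tumor, beside 57.1% of all genes, and for 5 of 6 with macrophages, beside 53.1%. The members' median log2 difference was 0.69 with macrophages and tumor, beside 0.40 over all genes, and 0.95 with macrophages, beside 0.66. Between the co-cultures 0 of 6 rose, beside 2.67% of all genes, and 1 of 6 fell, Il1rl1, beside 0.533%. In that comparison 3 of 6 did not overlap, beside 24.9%, and the median was -0.23, beside -0.115 over all genes. The tally depended on scaling. Centred on the median of all genes, 1 receptor kept its call with macrophages and tumor (Il1r2), 1 with macrophages (Il1rl1) and 0 between the co-cultures, where 13 genes of the panel rose and 15 fell, 7 rose and 30 fell, and 0 passed. Centred on expressed genes the receptors called were 1 (Il1r2), 4 and 1, with 66 genes of the panel higher and 70 lower in the comparison of macrophages and tumor with OT-1 alone. The comparisons against OT-1 cells alone share those control samples, and with 3 samples against 3 the exact permutation test of 1 gene cannot give a P value under 0.1.

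Differences between receptor genes within a sample do not change when the sample is centred, since all its genes then shift alike. Quantile normalization can change them. Il1rl1 minus Il1r2, on the log2 scale, was -1.65, -1.76 and -1.32 with macrophages and tumor, 0.70, 0.71 and 0.05 with macrophages, and 0.20, 0.63 and -0.22 in OT-1 cells alone. Probes differ in efficiency, so the sign of this difference does not rank the genes, and only its change between groups is read. It was lower in every sample with macrophages and tumor than in any other sample. The mean with tumor differed by -2.06 from that with macrophages and by -1.78 from that of OT-1 cells alone (exact permutation P value = 0.1 for each, two-sided and the smallest possible, and 0.164 after Benjamini-Hochberg adjustment over 18 such tests). Il1rl1 with macrophages and tumor and both genes in OT-1 cells alone were under the floor, so these values rest on 30 to 61 raw counts per gene there. The value of macrophage sample 2, 0.71, rests on 41 raw Il1rl1 counts and 25 raw Il1r2 counts. Macrophages against OT-1 cells alone gave 0.28 on the same difference, with overlapping samples (exact permutation P value = 0.5). For the IL-18 receptor, Il18r1 minus Il18rap was 0.00, 0.08 and 0.18 with macrophages and tumor, 0.12, 0.17 and 0.09 with macrophages, and 0.12, 0.08 and 0.09 in OT-1 cells alone. All groups overlapped on that difference, and their means were 0.09, 0.13 and 0.10, given in the same order. Most of the 18 tests gave the smallest possible P value of 0.1, among them Il1rl1 minus Il1rap in all 3 comparisons. Separation of groups was therefore not particular to Il1rl1 minus Il1r2.

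**Figure D3:**
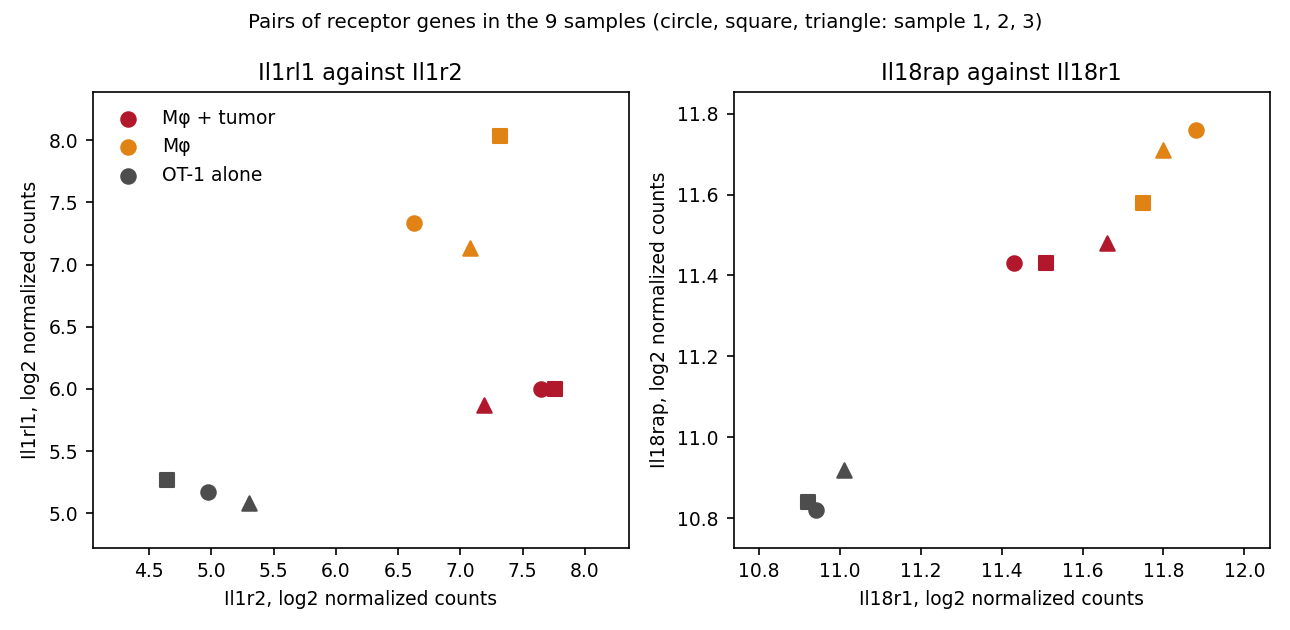
Log2 normalized counts of Il1rl1 against Il1r2 (left) and of Il18rap against Il18r1 (right), with 1 point per sample, colored by group. Samples with macrophages and tumor have Il1rl1 at 5.87 to 6.0, against 7.13 to 8.03 with macrophages, at overlapping Il1r2 levels, whereas Il18rap and Il18r1 differ by at most 0.18 in all 9 samples.

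The genes whose levels followed each receptor most closely over the 9 samples, among 388 other genes that reached the floor, are given as a description, since the samples share 3 groups and 1 scaling. Il1r2 was nearest to Ifi27 (Pearson r = 0.993, Spearman rho = 0.950) and Xaf1 (r = 0.989, rho = 0.983), both interferon-induced genes, and to Ifng (r = 0.986, rho = 0.950), which encodes interferon-γ. Il1rl1 was nearest to Ccl1 (r = 0.977, rho = 0.929), a chemokine of activated T cells, followed by Cdk1 (r = 0.933), the mitotic kinase, and Casp1 (r = 0.933), the protease that matures IL-1β and IL-18. Without macrophage sample 2, r was 0.993 for Ccl1, 0.888 for Cdk1 and 0.882 for Casp1. The Ccl1 level averaged 11.31 with macrophages and tumor, 12.38 with macrophages and 10.8 in OT-1 cells alone. Il1rap was nearest to Btla (r = 0.974), an inhibitory receptor, then Cmpk2 (r = 0.938) and Ccl9 (r = 0.923). Il18r1 was nearest to Ikzf1 (r = 0.991), which encodes Ikaros, to Il18rap (r = 0.99) and to Nrp1 (r = 0.989). Il18rap was nearest to Nrp1 (r = 0.995), Nfatc1 (r = 0.994), a transcription factor of T cell receptor signalling, and Tnfsf10 (r = 0.991), which encodes TRAIL. Nrp1, which encodes neuropilin-1, averaged 10.62 with macrophages and tumor, 11.27 with macrophages and 8.64 in OT-1 cells alone.

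Those ligands of these receptors that the panel measured were not read in the sorted cells, and Il33, whose product binds ST2, was not measured. The 4 measured, Il1a, Il1b, Il18 and the antagonist Il1rn, had group means under the floor throughout, and 0 of 4 passed the test in any comparison. Il18 came closest to the floor, at 6.23 ± 0.13 with macrophages and tumor, 6.07 ± 0.64 with macrophages and 5.48 on average in OT-1 cells alone. Of 3 other receptors of the family, Il1rl2 and Il1rapl2 were under the floor and Sigirr, an inhibitory receptor of the family, was not. Sigirr levels were 10.53 ± 0.07 with macrophages and tumor, 10.45 ± 0.04 with macrophages and 10.05 on average in OT-1 cells alone. It rose in both co-cultures against OT-1 cells alone (log2 (fold change) = 0.49, adjusted P value = 0.0110, and 0.40, adjusted P value = 0.0318) and gave 0.09 between the co-cultures. Those changes lay near or under the median of all genes (0.40 and 0.66). Centred on that median Sigirr turned to -0.02 and -0.30, and centred on expressed genes it did not pass (0.18 and 0.31).

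Downstream of the receptors, 13 genes of MyD88 and IRAK signalling were measured and 12 reached the floor. With macrophages and tumor against OT-1 cells alone, 1 of 13 rose and 0 fell, where 14.5% of all genes rose and 3.87% fell. In both other comparisons 0 of 13 passed, where 11.9% rose and 6.53% fell with macrophages, and 2.67% rose and 0.533% fell between the co-cultures. The gene that rose was Irak2, a kinase that joins MyD88 complexes, at 9.06 with macrophages and tumor, 8.68 with macrophages and 8.30 in OT-1 cells alone (log2 (fold change) = 0.76 for macrophages and tumor against OT-1 alone, adjusted P value = 0.00969). It did not pass under any of 4 other scalings, at 0.25 to 0.47. Myd88, the adaptor itself, was at 9.93 with macrophages and tumor, 9.94 with macrophages and 9.69 in OT-1 cells alone and did not pass (adjusted P value = 0.507 and 0.372 against OT-1 cells alone). The median log2 difference of these 13 genes was 0.17 with macrophages and tumor and -0.04 with macrophages, beside 0.40 and 0.66 over all genes. Of 4 inflammasome genes 1 passed in 1 comparison, Nlrc5, which is better known as an activator of MHC class I genes and fell by 0.43 with macrophages against OT-1 cells alone (adjusted P value = 0.0240). Centring on the median of all genes ended the Nlrc5 call (-1.13, adjusted P value = 0.400), and the other scalings kept it. Casp1 was at 8.17 with macrophages and tumor, 8.41 with macrophages and 8.06 in OT-1 cells alone, with 0 calls.

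Among 14 regulators and products of the IL-12, IL-18 and IL-33 response, 4 passed upward and 1 downward in the group with tumor, and 2 upward and 2 downward with macrophages, all set against OT-1 cells alone. Between the co-cultures 2 rose and 0 fell. The shares of all genes were 14.5% higher and 3.87% lower, 11.9% and 6.53%, and 2.67% and 0.533%. The list's median log2 difference was 0.25 with macrophages and tumor, beside 0.40 over all genes, and -0.15 with macrophages, beside 0.66. Ifng, the product that IL-12 and IL-18 raise together, was at 10.08 ± 0.32 with macrophages and tumor, 9.70 ± 0.19 with macrophages and 7.81 on average in OT-1 cells alone (log2 (fold change) = 2.27, adjusted P value = 0.000968, and 1.89, adjusted P value = 0.00275). Stat4, the transcription factor that IL-12 activates, rose by 0.97 (macrophages and tumor) and by 0.53 (macrophages). Both IL-12 receptor chains moved, and in different ways. Il12rb1 was at 7.93 with macrophages and tumor, 7.65 with macrophages and 9.24 in OT-1 cells alone, and it fell in both co-cultures (log2 (fold change) = -1.31 and -1.59). Il12rb2 was at 10.96 with macrophages and tumor, 9.96 with macrophages and 10.22 in OT-1 cells alone, and it rose with macrophages and tumor against OT-1 cells alone (0.74, adjusted P value = 0.00518) and against macrophages (1.01, adjusted P value = 0.00509). Ifngr1, a chain of the interferon-γ receptor, rose likewise with macrophages and tumor, by 0.88 and 1.26. Runx3, a factor of CD8 T cell identity, fell by 0.67 with macrophages against OT-1 cells alone (adjusted P value = 0.00454). Gata3, which supports ST2 expression in helper T cells, was at 9.75 with macrophages and tumor, 9.58 with macrophages and 9.65 in OT-1 cells alone and passed in 0 comparisons. Centred on the median of all genes, Ifng with macrophages and tumor (1.76) and Il12rb1 in both co-cultures (-1.82 and -2.29) kept their calls, the others did not, and Stat4 turned to -0.17 with macrophages. Centred on expressed genes, Il12rb2 lost its call in the group with tumor against OT-1 cells alone (0.43, adjusted P value = 0.118) and the others kept theirs. Centred on T cell genes, Il12rb2 lost that call (0.45, adjusted P value = 0.131) and the one against macrophages (0.78, adjusted P value = 0.0507). Quantile normalization ended the calls of Il12rb1 with macrophages and tumor (-1.63, adjusted P value = 0.198) and of Runx3 with macrophages (-1.17, adjusted P value = 0.184). The type 2 cytokines Il5 and Il13, products of ST2 signalling in helper cells, stayed under the floor.

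**Figure D4:**
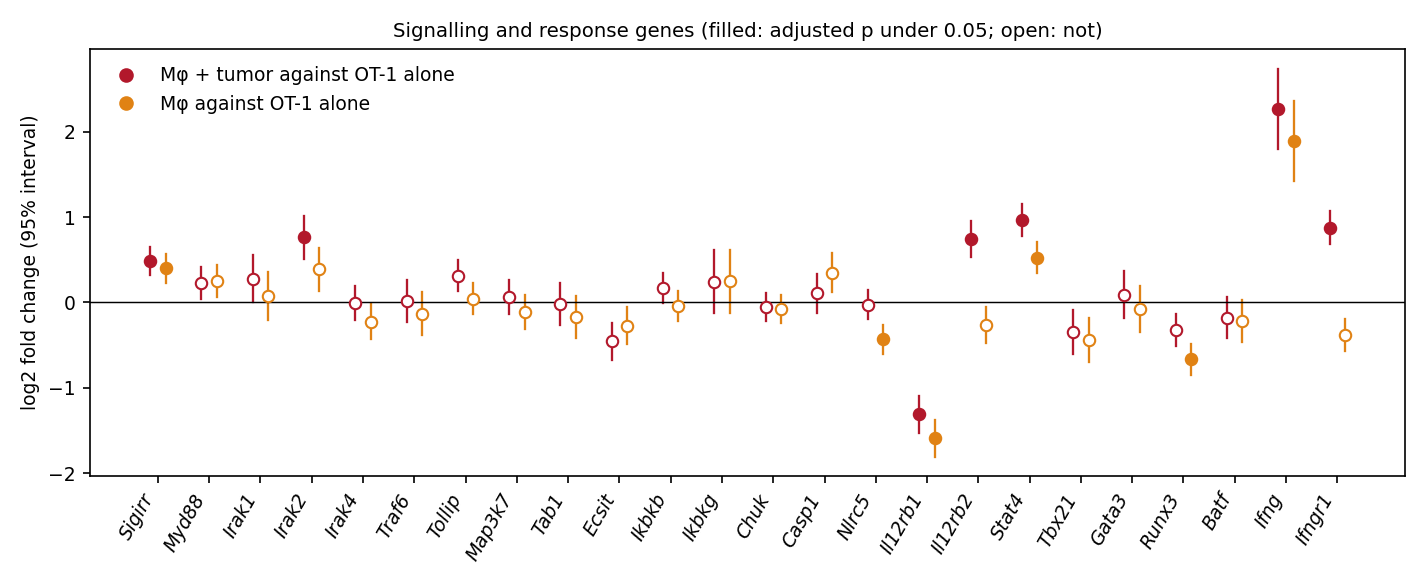
Log2 fold change with its 95% interval (y axis) of 24 genes of the receptor pathways (x axis), for macrophages and tumor (red) and for macrophages (orange), each against OT-1 alone, with filled points for an adjusted P value under 0.05. Ifng lies highest, at 2.27 and 1.89, and Il12rb1 lowest, at -1.31 and -1.59.

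ST2 and IL1R2 are also carried by mast cells, regulatory T cells, macrophages and neutrophils, so markers of those cells were read in the same samples. All 9 of 9 T cell markers were above the floor, and their summed level on the log2 scale was 16.11 to 16.2 with macrophages and tumor, 15.99 to 16 with macrophages and 15.55 to 15.61 in OT-1 cells alone. Of 19 macrophage markers, 2 were at or above the floor with macrophages and tumor, 2 with macrophages and 1 in OT-1 cells alone. These were Cd68 in all groups and Cd86 in the co-cultures, whereas Csf1r, the macrophage growth factor receptor, averaged 4.74 with macrophages and tumor, 4.98 with macrophages and 4.02 in OT-1 cells alone. Their summed level was 9.83 to 10.02 with macrophages and tumor, 9.49 to 11.2 with macrophages and 9.17 to 9.57 in OT-1 cells alone. Among 13 neutrophil and mast cell markers only S100a8 and Kit reached the floor in a group, and the mast cell markers Fcer1a and Ms4a2 and the regulatory T cell marker Foxp3 did not. The summed neutrophil and mast cell level was 10.15 to 10.51 with macrophages and tumor, 9.31 to 11.04 with macrophages and 9.07 to 9.6 in OT-1 cells alone. Kit rose in both co-cultures against OT-1 cells alone, with levels of 9.5 with macrophages and tumor, 8.62 with macrophages and 7.96 in OT-1 cells alone. It also rose with macrophages and tumor against macrophages (log2 (fold change) = 0.88, adjusted P value = 0.0347), where Il1rl1 fell. Centring on all genes ended each of these Kit calls. The differences were then 1.03 with macrophages and tumor (adjusted P value = 0.711) and -0.03 with macrophages, each against OT-1 cells alone, and 1.06 between the co-cultures. Centred on expressed genes, only the call between the co-cultures was lost (0.66, adjusted P value = 0.0861). Of 16 tumor or mesenchymal markers, 2 were at or above the floor with macrophages and tumor, 2 with macrophages and 3 in OT-1 cells alone. Their summed level, 13.11 to 13.2 with macrophages and tumor, 13.71 to 13.89 with macrophages and 11.51 to 11.65 in OT-1 cells alone, was led by Spp1, osteopontin, at means of 13.07, 13.74 and 11.25. Of 9 markers of regulatory or helper T cells 0 reached the floor in any group. In these bulk samples fewer cells of a type and less RNA per cell cannot be told apart, and the part of other cells in the Il1rl1 and Il1r2 differences was not tested.

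Depth limits the low receptors most. Raw totals recovered from the spacing of the low values were 697541 to 1185869 counts in 8 samples and 132039 in macrophage sample 2. Counting error at 100 normalized counts was 8.25% to 11.7% in the 8 samples and 25.3% in macrophage sample 2. Each raw count stood for 6.38 normalized counts in macrophage sample 2 and for 0.681 to 1.36 in the others. The median over all genes was 7.80 there and 6.10 to 6.88 in the others. Genes under the floor such as Il1r1 and Il1rl2 (7.20, against 5.36 and 5.24 in the other macrophage samples) were highest in it. The cause of these higher values was not tested. Without that sample the Il1r1 difference between macrophages and tumor and macrophages turned to 0.35, while the calls of Il1r2, Il1rl1, Il18r1 and Il18rap with macrophages against OT-1 cells alone were kept.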

How the data were processed

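RNA of OT-1 T cells was counted on the NanoString nCounter in 9 samples, 3 per group. The deposited values are log2 normalized counts of 750 genes, which the authors made with nSolver 4.0.70 and nSolver Advanced Analysis 2.0.134, as the submitters' processing notes name them. The normalization genes and factors are not given in the sources used here. Below 30 raw counts, 100% of values in every sample fell on whole counts within 0.008 log2, so raw counts and depth were recovered from that spacing and used for counting errors only.

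Groups came from the labels, 1 coefficient each, and limma 3.58.1 (R 4.3.3) compared them on the deposited values of all 750 genes, two-sided, without a filter, with Benjamini-Yekutieli adjustment as in the study's methods and a threshold of 0.05. The step was tested on simulated data. The 3 samples of a group were separate cultures. Whether they came from separate animals is not given in the sources used here, so P values measure the spread between cultures. Single differences within samples had an exact permutation test. The members, gene lists and tests were chosen with earlier results of these data known. Named genes were all 6 members, list genes past the threshold (up to 4 by size of change per list and comparison), others of the same pathway whose role is described, and the 3 genes most correlated with each readable member. Symbols were matched to RefSeq GRCm38.p6 (734 current, 8 older, 8 unmatched), and promoter sequences are from RefSeq. Alternatives covered scaling, floors, filters, pseudocount, weights, block, adjustment, test and samples left out.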

Additional observations from a re-analysis of the deposited data

How the results depend on the processing

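Each count of genes and each receptor difference was recomputed under 24 alternatives, 2 of them chosen after seeing the data: weights from counting error, and leaving out macrophage sample 2 together with centring on expressed genes. Values are log2 differences with limma's adjusted P value in parentheses, and the cause of a change was not tested. Il1r1 gave no value with the floor, where its samples all sit at it, or with the filter, which leaves it out, and Il1rl1 gave none with the floor for macrophages and tumor against OT-1 alone.

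For macrophages and tumor against OT-1 alone, 109 genes rose and 29 fell. These counts were 13 and 15 when centred on the median of all genes, 66 and 70 on that of expressed genes, 69 and 67 on T cell genes, 72 and 68 after quantile normalization, and 193 and 59 with sample weights. Benjamini-Hochberg gave 48 lower and the added combination 110 lower. Leaving out 1 sample gave 75 to 175 higher and 18 to 48 lower. For macrophages against OT-1 alone, 89 rose and 49 fell, against 7 and 30 centred on all genes, 48 and 25 with 2 groups only, 142 and 84 with Benjamini-Hochberg, and 44 higher with a t-test per gene (two-sided, equal variance, a test the study names for other assays). Lower genes were 96 with sample weights and 83 with the added combination, and leaving out 1 sample gave 56 to 100 higher and 26 to 70 lower. Between the co-cultures 20 rose and 4 fell. Those were 0 and 0 centred on all genes and with 2 groups only, by limma, with 62 and 106 genes at an unadjusted P value under 0.05, and 0 and 0 by the t-test. They were 12 and 7 centred on expressed genes, 10 and 7 on T cell genes, 55 and 9 with the filter, 52 and 8 with the intensity trend, 61 and 10 with sample weights, 53 and 9 with Benjamini-Hochberg and 37 and 7 with weights from counting error. The floor gave 50 higher, quantile normalization 9 lower and the added combination 13 lower, and leaving out 1 sample gave 10 to 29 higher and 1 to 5 lower.

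Il1r2 lost its call after quantile normalization, at 2.05 (0.0563) with macrophages and tumor and 1.1 (0.639) with macrophages. With macrophages it also lost it centred on all genes at 1.35 (0.108), with the floor at 0.37 (1) and by the t-test at 2.04 (0.0916). Il1rl1 with macrophages and tumor, against OT-1 cells alone, passed with sample weights at 0.78 (0.00179) and, at the same 0.78, with 2 groups only (0.00735), Benjamini-Hochberg (0.0351) and the t-test (0.0188), and it spanned 0.74 to 0.83 leaving out 1 sample. With macrophages its call was lost with the floor at 0.85 (0.0714) and the t-test at 2.32 (0.0655). Between the co-cultures its call was lost centred on all genes at -1.36 (0.602), with the floor at -0.85 (0.149), with 2 groups only at -1.54 (0.415) and by the t-test at -1.54 (0.507), and leaving out 1 sample gave -1.72 to -1.27. Il1rap turned to -0.20 centred on all genes and to -0.0033 centred on expressed genes, also in the added combination, with macrophages and tumor, and to -0.37 with macrophages centred on all genes, where Benjamini-Hochberg made 0.32 a call (0.0422). Between the co-cultures Il1rap turned to 0.17 centred on all genes and 0.0028 with weights from counting error, and spanned -0.0783 to 0.0167 leaving out 1 sample. Il1r1 there turned to 0.26 after quantile normalization, 0.48 with sample weights and 0.12 in the added combination, and spanned -0.67 to 0.35 leaving out 1 sample. With macrophages and tumor, against OT-1 cells alone, Il18r1 and Il18rap lost their calls at 0.0667 and 0.0767 centred on all genes, 0.27 and 0.28 on expressed genes, 0.29 and 0.30 on T cell genes, and 0.25 and 0.26 after quantile normalization. Il18r1 lost it in the added combination too, at 0.27 (0.193), and spanned 0.51 to 0.63 leaving out 1 sample. With macrophages both lost the call when centred on all genes, at 0.16 and 0.13. Between the co-cultures Il18rap passed at -0.47 (0.0212) after quantile normalization, -0.28 (0.0446) with sample weights and -0.51 (0.0280) in the added combination.

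Deviations of samples with the same number in 2 groups had correlations of -0.37 to 0.46. Samples with different numbers were not compared, so these values cannot decide whether the numbers pair the samples. The main fit had no block. A replicate block gave 30 lower genes with macrophages against OT-1 alone and 9 higher and 1 lower between the co-cultures. With the block, Il18r1 with macrophages and tumor, against OT-1 cells alone, gave 0.58 (0.0548) and Il1rl1 between the co-cultures -1.54 (0.0988), and no other receptor call changed. The t-test called 360, 251 and 136 genes before adjustment, in the order of the comparisons above, and 291, 172 and 38 after Benjamini-Hochberg.

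Macrophage sample 2, where 100 normalized counts stand for 15.7 raw counts, limits Il1rl1, Il1r2 and Il1r1 most, since 41, 25 and 12 raw counts stand behind its values there. The median difference of all genes was 0.40, 0.66 and -0.115 as deposited, and 0.09, 0.56 and -0.33 after centring on expressed genes.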
